A study of Mus musculus with 6 samples.

Results

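The genes of the mTOR complex 1 (mTORC1) pathway were examined in the medial prefrontal cortex (mPFC) of *Shank3* transgenic (TG) mice and wild-type (WT) mice. They were 10 genes chosen by name, although earlier results of these data were known. *Mtor*, *Rptor*, *Mlst8*, *Akt1s1* and *Deptor* stand for the complex itself. *Tsc1*, *Tsc2* and *Rheb* stand for the switch above it, and *Rps6kb1* and *Rps6kb2* for the kinases below it. All 10 were found by Ensembl identifier among the 18254 genes of the deposited table, and all 10 passed the filter on low values. The mice were males aged 10 to 12 weeks on a C57BL/6J background, with no treatment named in the labels. The TG mice carry an EGFP-*Shank3* transgene and overexpress Shank3, the scaffold protein of excitatory synapses, and both genotypes carry their own *Shank3* gene. The promoter of the transgene is not given in the sources used here. There were 3 RNA samples of each genotype (named TG-1, TG-2, TG-3, WT-1, WT-2 and WT-3 by their replicate number), and each pooled the mPFC of a pair of mice, so that a replicate is a pool and the p-values measure the spread between pools. The values are normalized counts, that is, estimated read numbers per gene divided by a size factor of the library.

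mTORC1 is a protein kinase complex that couples growth factors, amino acids and energy supply to protein synthesis. The TSC1-TSC2 complex keeps the small GTPase Rheb inactive, and Rheb bound to GTP turns the complex on at the lysosome. Active mTORC1 phosphorylates the S6 kinases and the inhibitors of the cap-binding factor eIF4E. In neurons it controls protein synthesis at synapses, and loss of TSC1 or TSC2 causes tuberous sclerosis, a disease with epilepsy and autism. Its activity is set mainly by phosphorylation and by where the proteins lie in the cell, neither of which RNA levels measure. Earlier work on this mouse line concerned mTORC1 signaling in the striatum, and the question here was whether the RNA of the pathway differed between the genotypes in the mPFC.

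The promoters of the members were looked up in RefSeq (assembly GRCm38.p6), from 250 bases before to 50 bases after the annotated start, and 8 of the 10 genes had an entry. *Deptor* and *Rps6kb2* were not among them. The feature that the 8 windows shared was a high number of CpG dinucleotides, between 13 and 47 per window against a median of 7 over all 32851 windows, and 37.9% of all windows held at least 13. Their GC content ranged from 41.7% (*Rptor*) to 70.0% (*Rheb*), with a median of 52.7% over all windows. Both strands were searched for short motifs: the GC box (GGGCGG), the core of ETS factor sites (CCGGAAG), the E-box (CACGTG), the cyclic AMP response element (TGACGTCA) and the TATA box (TATAAA). The GC box was present in 3 of the 8 windows (*Mtor*, *Rheb* and *Akt1s1*) and in 35.7% of all windows, and the ETS core in 3 of the 8 (*Mtor*, *Akt1s1* and *Tsc2*) and in 8.86% of all windows. The E-box was found in the *Rheb* window and in 7.15% of all windows, and neither the TATA letters (13.6% of all windows) nor the cyclic AMP response element (1.79%) were in any of the 8. The windows with the ETS core are printed here, since they include *Mtor*, the catalytic subunit, and *Akt1s1*, the member whose level was most like that of *Mtor* across the libraries. Capitals mark the letters of the ETS core and the GC box on either strand, and each sequence reads 5′ to 3′ on the strand of its gene.
*Mtor*, chr4:148448332-148448631, plus strand: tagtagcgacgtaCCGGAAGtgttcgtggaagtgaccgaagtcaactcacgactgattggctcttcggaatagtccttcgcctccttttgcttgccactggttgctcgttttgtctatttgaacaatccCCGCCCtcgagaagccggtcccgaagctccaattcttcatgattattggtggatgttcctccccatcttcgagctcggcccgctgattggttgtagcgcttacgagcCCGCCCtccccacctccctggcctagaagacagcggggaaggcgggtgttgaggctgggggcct
*Akt1s1*, chr7:44850122-44850421, plus strand: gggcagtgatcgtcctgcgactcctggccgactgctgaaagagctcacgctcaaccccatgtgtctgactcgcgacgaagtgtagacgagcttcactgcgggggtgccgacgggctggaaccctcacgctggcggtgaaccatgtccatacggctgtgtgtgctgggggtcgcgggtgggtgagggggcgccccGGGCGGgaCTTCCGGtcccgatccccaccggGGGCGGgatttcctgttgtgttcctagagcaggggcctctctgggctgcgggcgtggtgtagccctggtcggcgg
*Tsc2*, chr17:24632578-24632877, minus strand: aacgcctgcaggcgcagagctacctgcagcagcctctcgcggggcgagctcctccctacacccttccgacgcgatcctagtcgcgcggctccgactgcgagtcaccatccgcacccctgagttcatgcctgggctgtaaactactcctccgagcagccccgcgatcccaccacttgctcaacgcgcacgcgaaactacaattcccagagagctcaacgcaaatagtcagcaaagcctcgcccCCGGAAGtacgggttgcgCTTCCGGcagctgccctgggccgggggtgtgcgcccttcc
A match of these letters is a description and was not tested for binding, and the data hold no measurement at these windows.

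The normalized counts summed to between 28363967 and 29447717 per library, values that follow the division by size factors and do not measure sequencing depth. *Shank3* (ENSMUSG00000022623) matched the labels, with 17470, 19003 and 16310 normalized counts in the TG libraries against 8374, 8173 and 6791 in the WT ones. Its fitted log2 fold change was 1.18 (standard error, SE, 0.10), for which limma's adjusted p-value was 0.0643, or 0.000437 when replicate number entered the fit as a block. The libraries numbered 3 stood apart from the others in both genotypes. Across all tested genes, the deviations of TG-3 and WT-3 from their genotype means had a correlation of 0.62, against 0.30 and 0.33 for the other same-numbered libraries and at most 0.27 for libraries of different numbers. As cortical tissue should, each library expressed the 5 markers of excitatory neurons (among them *Slc17a7* and *Camk2a*), with no value under 2398 normalized counts. The 10 markers of oligodendrocytes and myelin (among them *Mbp* and *Mog*) summed to between 76682 and 99376 normalized counts in TG and between 114015 and 116037 in WT, with 10 of 10 lower in TG, 8 of them without overlap between the groups and none at 0. Of all tested genes, 3.12% had every TG library below every WT library and 2.91% had every TG library above. The 5 leptomeningeal markers (among them *Slc13a4* and *Slc47a1*) summed to between 1974 and 2328 in TG and between 1529 and 1969 in WT, with 5 of 5 higher in TG, 2 of them without overlap, and none at 0. Markers of inhibitory neurons, astrocytes, microglia and endothelium, 5 for each type, had summed levels that overlapped between the genotypes. The summed markers of the olfactory bulb were highest in TG-2 (2739 against at most 1932 elsewhere) and those of the choroid plexus in TG-3 (551 against at most 206), with the genotypes overlapping. Of the 5 olfactory bulb markers 5 were higher in TG, and of the 5 choroid plexus markers 3, each with overlapping groups. In some library, 2 of the olfactory bulb markers and 1 of the choroid plexus markers were under 3 normalized counts. In bulk tissue, fewer cells of a type and less RNA per cell cannot be told apart.

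None of the 10 mTORC1 genes differed between *Shank3* TG and WT mPFC beyond the spread between the libraries. After adjustment over the 16714 tested genes in limma, 0 of the 10 were called at 0.05, where the share of all tested genes was 0% (0.00598% with the replicate block and 0.156% with an empirical null, which divides all z-scores by their width). Without the block or the empirical null, limma did not call even the overexpressed *Shank3* (adjusted p-value 0.0643). The lack of a call in that fit therefore says little about the members. Before adjustment, limma's p-value was under 0.05 for 0 of the 10 and for 336 of all tested genes (2.01%). Adjusted, it was 1.00 for each of the 10. The fitted log2 fold change (TG minus WT, on the scale of log2 of the normalized count plus 1) was above 0 for 4 of the 10 and below 0 for 6, where 48.6% of all tested genes were above 0. The median over the members was -0.022, and the median over all tested genes was -0.0037. The TG and WT libraries overlapped for every one of the 10 genes, where 6.02% of all tested genes had groups without overlap (2.91% with TG above and 3.12% with TG below). With 3 libraries against 3, an exact two-sided permutation test of a single gene has 0.1 as its smallest p-value, so limma's 95% interval is given for each gene. These intervals, and the SE beside them, come from the fit on genotype alone, without the replicate block. With the block the SE was smaller for each of the 10, from 0.068 against 0.12 for *Mlst8* to 0.109 against 0.118 for *Tsc1*. The width of all z-scores was 0.731 without the block and 0.996 with it.

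**Figure D1:**
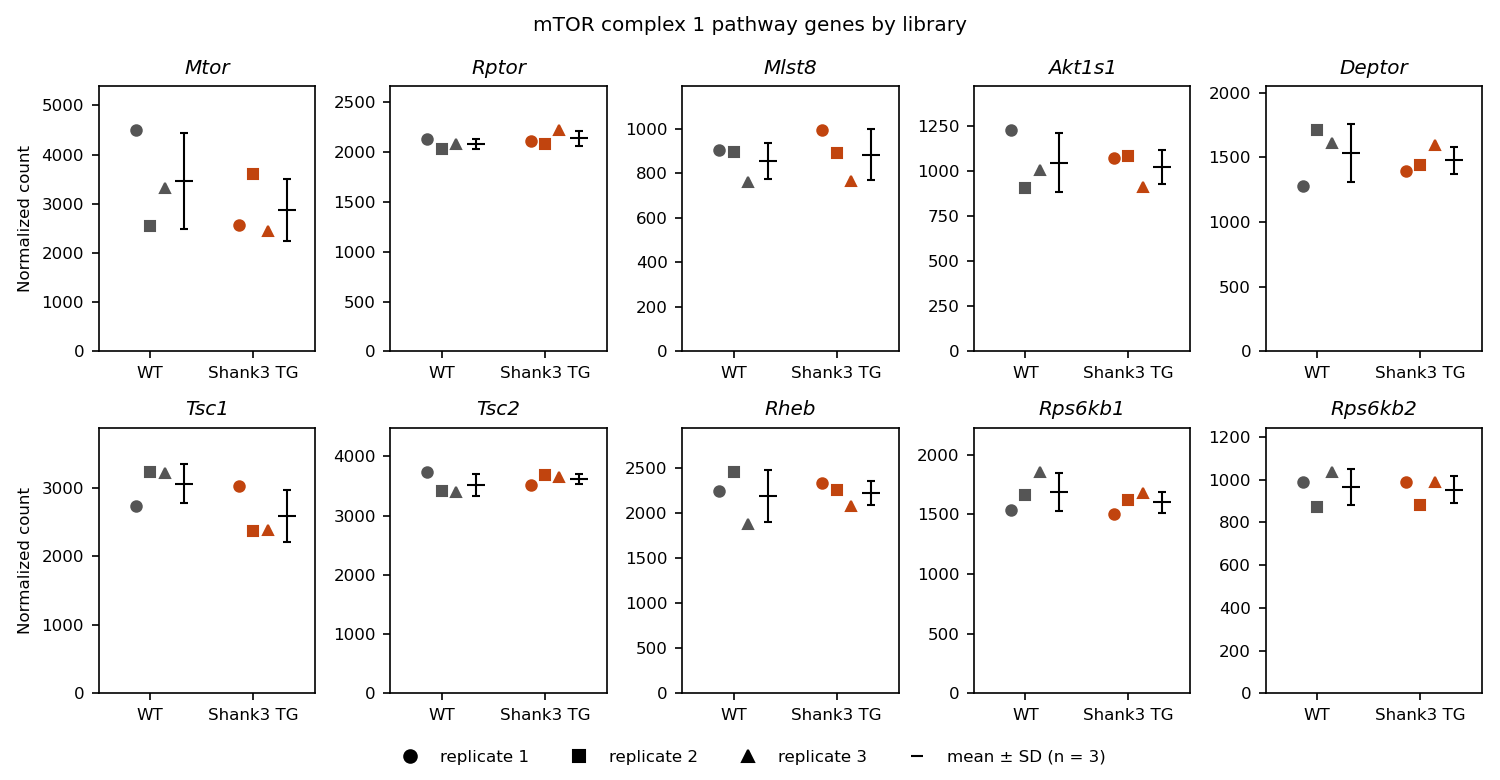
Normalized counts of the 10 mTORC1 pathway genes in each of the 6 libraries, with 1 panel per gene and the y axis starting at 0. Circles, squares and triangles are replicates 1, 2 and 3, and the bars are the mean ± SD of 3 libraries. In each panel the WT points (gray) and the *Shank3* TG points (orange) overlap, and the points of *Mtor* are spread from 2437 to 4494.

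*Mtor* (ENSMUSG00000028991, chromosome 4 from 148448611 to 148557683 on GRCm38) encodes the kinase. It had 2576, 3607 and 2437 normalized counts in TG-1, TG-2 and TG-3 and 4494, 2557 and 3317 in WT-1, WT-2 and WT-3. The highest library was WT-1 and the lowest TG-3, but TG-2 lay above WT-2 and WT-3, so the genotypes were interleaved. The TG mean of 2873 ± 639 (SD, n = 3) against the WT mean of 3456 ± 976 gave a log2 fold change of -0.25 (SE 0.22, 95% interval -0.76 to 0.26). That value rested on single libraries, since it was -0.042 without WT-1, -0.45 without WT-2 and -0.43 without TG-2, and -0.15 with both libraries numbered 3 left out. *Mtor* was also the member with the widest spread. Its highest library was 1.84-fold above its lowest, and its standard deviation within genotypes, 0.36 on the log2 scale, was larger than that of 96.8% of the 3234 genes with a mean between 0.5 and 2 times its own.

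*Rptor* (ENSMUSG00000025583, chromosome 11 from 119602905 to 119899576) encodes raptor, the subunit that defines mTORC1 and brings substrates to the kinase. It had 2112, 2084 and 2220 normalized counts in TG, against 2130, 2035 and 2083 in WT. These are nearly level values, with the highest library 1.09-fold above the lowest. On the log2 scale the fold change was 0.038 (SE 0.068, 95% interval -0.12 to 0.20), the narrowest interval of the 10 genes. The standard deviation of *Rptor* within genotypes was larger than that of 4.2% of genes of like level, so the kinase and its defining partner were at opposite ends of the members' spread.

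*Mlst8* (ENSMUSG00000024142, chromosome 17 from 24473551 to 24479078) encodes the small subunit that binds the kinase domain in both mTOR complexes. It had 994, 892 and 766 normalized counts in TG-1 to TG-3 against 906, 897 and 761 in WT-1 to WT-3. Its lowest libraries were those numbered 3 in both genotypes. TG was above WT by a fitted log2 fold change of 0.045 (SE 0.12, 95% interval -0.24 to 0.33), and it was -0.044 without TG-1 and -0.036 without WT-3.

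*Akt1s1* and *Deptor* encode the inhibitory subunits. *Akt1s1* (ENSMUSG00000011096, chromosome 7 from 44848991 to 44855421) encodes PRAS40, which blocks substrates until Akt phosphorylates it, and had 1074, 1082 and 913 normalized counts in TG and 1227, 905 and 1009 in WT. *Deptor* (ENSMUSG00000022419, chromosome 15 from 55112317 to 55259271) had 1395, 1442 and 1594 in TG and 1280, 1710 and 1615 in WT. In both genes the WT libraries held the highest and the lowest value, and where *Akt1s1* was highest, in WT-1, *Deptor* was lowest. Their log2 fold changes were -0.026 (SE 0.13, 95% interval -0.33 to 0.27) and -0.047 (SE 0.12, 95% interval -0.33 to 0.23). Neither direction was stable, since *Akt1s1* was at 0.094 without WT-1 and 0.054 without TG-3, and *Deptor* at 0.037 without WT-2.

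The largest difference relative to its error among the members was that of *Tsc1*, which encodes hamartin, the subunit that stabilizes TSC2. *Tsc1* (ENSMUSG00000026812, chromosome 2 from 28641228 to 28691167) stood at 3023, 2367 and 2382 normalized counts in TG-1 to TG-3 against 2738, 3227 and 3218 in WT-1 to WT-3. TG-2 and TG-3 lay below every WT library, and TG-1 lay above WT-1. The means were 2591 ± 374 (SD, n = 3) in TG and 3061 ± 280 in WT. These gave a log2 fold change of -0.25 (SE 0.12, 95% interval -0.52 to 0.029), and limma's p-value before adjustment was 0.0725. It kept its sign with each library left out in turn, between -0.36 without TG-1 and -0.19 without TG-2. With the libraries numbered 3 left out of both genotypes it was -0.15.

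*Tsc2* (ENSMUSG00000002496, chromosome 17 from 24595816 to 24632630) encodes tuberin, the GTPase-activating protein for Rheb, and did not share this pattern. It had 3522, 3681 and 3654 normalized counts in TG, against 3734, 3418 and 3397 in WT, and its log2 fold change was 0.043 (SE 0.070, 95% interval -0.12 to 0.21). Here TG-2 and TG-3 were above WT-2 and WT-3 and TG-1 was below WT-1, the reverse of the order in *Tsc1*. The ratio of *Tsc1* to *Tsc2*, each per kilobase of exon, was 0.698, 0.523 and 0.530 in TG and 0.596, 0.768 and 0.770 in WT, so that the groups of this ratio overlapped as well. The ratio was computed after the values had been seen and is given without a test.

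*Rheb* (ENSMUSG00000028945, chromosome 5 from 24802823 to 24842624), the GTPase that activates the kinase, was at 2340, 2252 and 2074 normalized counts in TG and 2245, 2454 and 1878 in WT. The lowest library of each genotype was the one numbered 3. A log2 fold change of 0.026 (SE 0.11, 95% interval -0.23 to 0.28) was fitted, with the opposite sign without TG-1 (-0.012) or WT-3 (-0.081).

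The S6 kinases are the best known targets of mTORC1. *Rps6kb1* (ENSMUSG00000020516, chromosome 11 from 86498871 to 86544805), which encodes S6K1, had 1507, 1617 and 1675 normalized counts in TG-1 to TG-3 against 1538, 1665 and 1853 in WT-1 to WT-3. Each TG library lay below the WT library of the same number, and the highest library of each genotype was that numbered 3. It was the only member with the same direction at all 3 replicate numbers, where 24.8% of all tested genes had that property. Its log2 fold change was -0.072 (SE 0.092, 95% interval -0.29 to 0.14), and -0.0019 without WT-3. *Rps6kb2* (ENSMUSG00000024830, chromosome 19 from 4153991 to 4163354), which encodes S6K2, had 989, 879 and 989 normalized counts in TG and 991, 872 and 1034 in WT. Here the libraries followed their number closely, with TG-2 and WT-2 lowest. Its log2 fold change was -0.017 (SE 0.097, 95% interval -0.24 to 0.21), and it was above 0 without TG-2 (0.039), WT-1 (0.0029) or WT-3 (0.034). The ratio of *Rps6kb1* to *Rps6kb2* per kilobase of exon was 0.909, 1.10 and 1.01 in TG and 0.926, 1.14 and 1.07 in WT. In both genotypes it was lowest at number 1 and highest at number 2, and each TG library was below the WT library of the same number, with groups that overlapped.

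**Figure D2:**
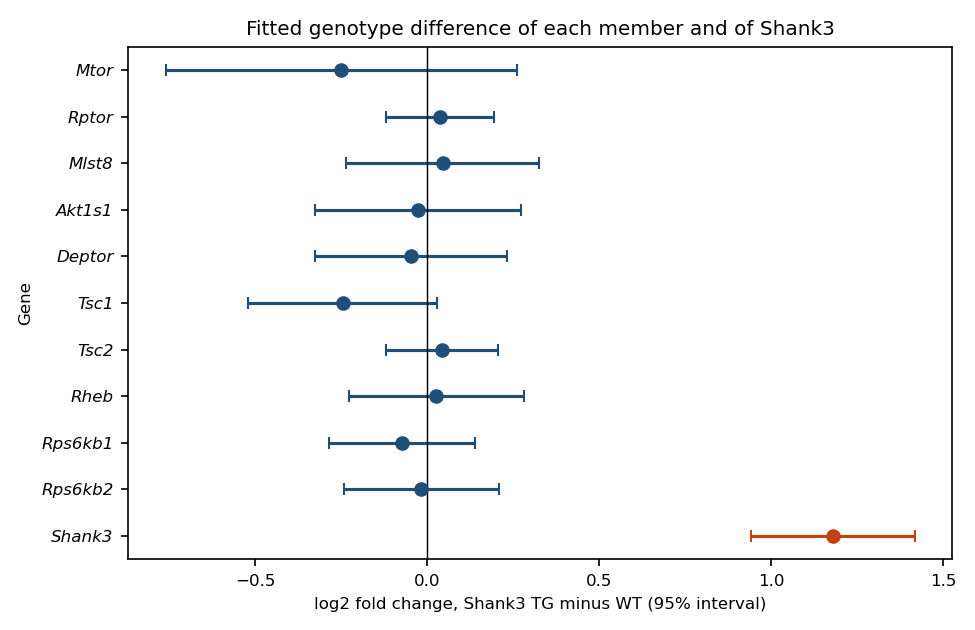
Fitted log2 fold change (TG minus WT, x axis) of each member and of *Shank3*, with limma's 95% interval as bars. Each of the 10 members has an interval that includes 0, from the narrowest in *Rptor* (-0.12 to 0.20) to the widest in *Mtor* (-0.76 to 0.26), and *Shank3* lies at 1.18.

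The same-numbered libraries were compared because they deviated together. The difference between TG and WT of the same number was -0.80, 0.50 and -0.44 for *Mtor* at numbers 1, 2 and 3, on the log2 scale. It was 0.14, -0.45 and -0.43 for *Tsc1*, and -0.19, 0.26 and -0.14 for *Akt1s1*. These 3 genes changed sign between the numbers by more than the other members did. For *Rptor* it was -0.012, 0.034 and 0.092, and for *Rps6kb2* -0.0020, 0.013 and -0.063, differences that stayed near 0. When replicate number entered limma's fit as a block, 0 of the 10 members had an adjusted p-value under 0.05, and the smallest unadjusted p-value was 0.0529, for *Tsc1*. That fit gave an unadjusted p-value under 0.05 to 4.98% of all tested genes.

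**Figure D3:**
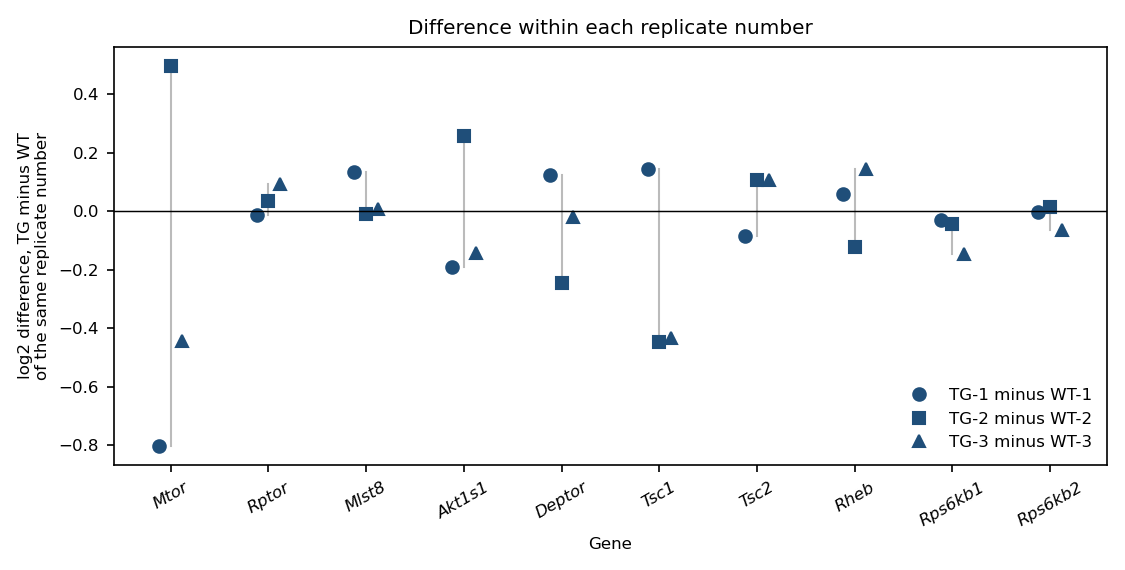
Difference between the TG and the WT library of the same replicate number (y axis, log2 scale) for each member, with circles, squares and triangles for numbers 1, 2 and 3. For *Rps6kb1* all 3 points lie below 0, and for the other 9 genes they lie on both sides, most widely for *Mtor*, from -0.80 to 0.50.

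Levels were compared between genes as normalized counts per kilobase of annotated exon. *Tsc2* was highest, at 371 ± 14.8 (SD over the 6 libraries), followed by *Akt1s1* at 337 ± 39.4, *Mtor* at 313 ± 79.5, *Rheb* at 286 ± 26.4 and *Tsc1* at 239 ± 33.1. The lower genes were *Mlst8* at 196 ± 20.4, *Rps6kb1* at 190 ± 14.2, *Rps6kb2* at 186 ± 13.0, *Deptor* at 170 ± 18.1 and *Rptor* at 157 ± 4.66. The range over libraries of each gene overlapped that of the next in this order, so no neighboring pair was separated. The order depends on the length that is used. With the longest annotated transcript in place of all exons, a choice made after the values had been seen, *Rptor* moved from the last place of the 10 to place 6, at 320, and *Rheb* from place 4 to place 2, at 546. *Rptor* against *Rictor*, the subunit that defines mTORC2, gave a ratio per kilobase of 1.44, 1.37 and 1.56 in TG and 1.34, 1.25 and 1.43 in WT. The groups overlapped, although each TG library was above the WT library of the same number. Of all tested genes, 24.8% had the same direction at all 3 numbers. The ratio of *Mtor* to *Rptor* had no such order, with 1.63, 2.31 and 1.46 in TG and 2.81, 1.67 and 2.12 in WT. These ratios are given without a test.

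**Figure D4:**
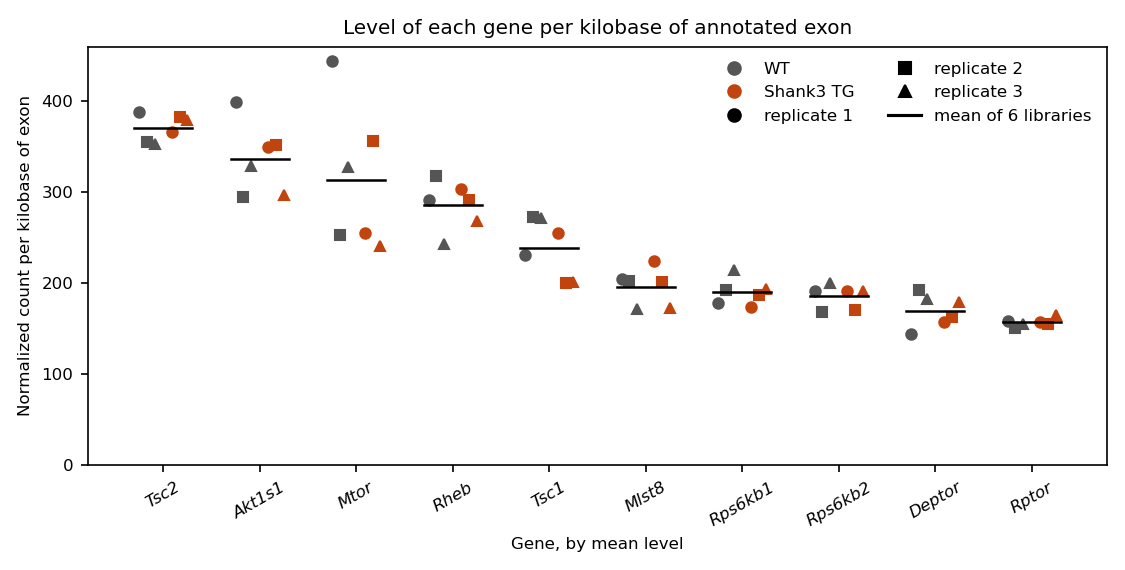
Normalized count per kilobase of annotated exon (y axis, from 0) of the 10 genes in order of their mean, in WT (gray) and *Shank3* TG (orange) libraries, with a line at the mean of 6 libraries. The means run from 371 for *Tsc2* to 157 for *Rptor*, and the points of neighboring genes overlap.

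The members did not rise and fall together across the 6 libraries. Of their 45 pairs, 20 had a Pearson correlation above 0 and 25 below 0, with a median of -0.11, over 6 libraries that share the replicate structure above. The highest values were those of *Mtor* with *Akt1s1* (0.84) and of *Mlst8* with *Rheb* (0.83). The lowest were those of *Akt1s1* with *Deptor* (-0.94), *Mlst8* with *Rps6kb1* (-0.85) and *Tsc1* with *Tsc2* (-0.85). Among all tested genes, the 3 most like *Mtor* over the 6 libraries were *Slc25a45* (0.99), *Adamts10* (0.99) and *Ky* (0.99), as a description of 6 values each. *Mlst8* and *Tsc2* are neighbors on chromosome 17, 116737 bases apart, and their correlation was 0.14.

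Some members share exon bases with genes on the opposite strand, and whether the quantification used strand is not given in the sources used here. *Tsc2* shares 693 exon bases with *Pkd1*, which averaged 4324 normalized counts, and *Akt1s1* shares 89 with *Tbc1d17*, which averaged 1108. *Rps6kb1* shares 155 with *Rnft1* (463) and *Rps6kb2* 45 with *Coro1b* (1527). The longest overlaps, 1224 bases of *Rps6kb2* with *Ptprcap* and 997 bases of *Mlst8* with *Bricd5*, were with genes that averaged 5 and 2.3 normalized counts.

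The other genes of the pathway were read from 10 lists with 96 genes in all, and all 96 passed the filter. None of them was called at an adjusted p-value of 0.05 by limma, with or without the replicate block or with the empirical null. Before adjustment, limma's p-value was under 0.05 for 3 of the 96 (3.12%, beside 2.01% of all tested genes), and with the replicate block for 6 of the 96 (6.25%, beside 4.98%). Groups without overlap were found for 6 of the 96 (6.25%, beside 6.02%). Of the 96 log2 fold changes, 55 were above 0 and 41 below, with a median of 0.015.

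Upstream, the lists were those that pass amino acid, growth factor and energy signals to the complex. The Rag GTPases, Ragulator and folliculin, which hold mTORC1 at the lysosome, had 3 of 13 genes above 0 and a median log2 fold change of -0.028, and none of the 13 had groups without overlap. The most abundant were *Rragd* (3919 ± 337 normalized counts in TG and 3993 ± 294 in WT, SD, n = 3), *Rraga* (2142 ± 126 and 2092 ± 58.6) and *Rragc* (1815 ± 187 and 1827 ± 191), with nearly equal means. GATOR1 and KICSTOR, which switch the Rag GTPases off, had 5 of 6 genes above 0 and a median of 0.072. In this list *Depdc5* had 1688 ± 84.6 in TG and 1515 ± 242 in WT, and *Nprl2* 766 ± 61.7 and 722 ± 26.9. GATOR2 and the amino acid sensors had 8 of 10 above 0 and a median of 0.024. Their most abundant genes were *Castor2* (4685 ± 345 and 4604 ± 203), *Sesn1* (1396 ± 198 and 1373 ± 120) and *Sesn3* (1153 ± 19.7 and 1125 ± 54.1). The list of phosphoinositide 3-kinase and Akt had 7 of 12 above 0 and a median of 0.0073, and *Pik3r1*, which encodes a regulatory subunit of the kinase, had 5137 ± 153 and 5380 ± 321. AMP-activated protein kinase and stress genes, which restrain mTORC1, had 5 of 9 above 0 and a median of 0.016, led by *Prkag2* (2316 ± 56.7 and 2278 ± 123), *Prkab2* (1835 ± 35.7 and 1918 ± 53.9) and *Stk11* (1700 ± 188 and 1743 ± 163).

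Beside the complex, the assembly list held *Telo2* (655 ± 43.9 normalized counts in TG and 606 ± 23.5 in WT), *Tti1* (550 ± 6.02 and 495 ± 37.8) and *Tbc1d7* (314 ± 31.6 and 339 ± 13.5). *Telo2* and *Tti1* encode cochaperones that fold the kinase, and *Tbc1d7* the third subunit of the TSC complex. The groups of *Tti1* did not overlap, with 556, 544 and 551 in TG against 516, 452 and 518 in WT, and limma's p-value for it was 0.134 before adjustment and 1.00 after it. Of its 4 genes 3 were above 0, with a median log2 fold change of 0.078. All 4 genes of the list for mTORC2, the sister complex that phosphorylates Akt, were below 0, with a median of -0.19. *Rictor* had 1850 ± 64.1 normalized counts in TG and 1961 ± 112 in WT, and *Mapkap1* 1019 ± 49.2 and 1195 ± 319, differences within their spread.

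The third abundant mTORC2 gene, *Prr5l* (ENSMUSG00000032841), which encodes an accessory subunit, had groups without overlap. It had 203, 253 and 190 normalized counts in TG-1 to TG-3 against 267, 272 and 271 in WT-1 to WT-3. Every TG library was below the WT libraries, which were nearly level, and TG-2 was the highest of the TG libraries. This was a log2 fold change of -0.34 (SE 0.13), for which limma's p-value was 0.0349 before adjustment and 1.00 after it. The summed myelin markers were also lower in every TG library, with 77021, 99376 and 76682 normalized counts in TG-1 to TG-3 against 116037, 114015 and 114791 in WT-1 to WT-3. They had the order of *Prr5l* among the TG libraries and the reverse order among the WT libraries, and their part in the difference of *Prr5l* was not tested.

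Downstream, the substrates of mTORC1 and the S6 kinases had 10 of 14 genes above 0 and a median log2 fold change of 0.025. *Eif4b*, which encodes an initiation factor phosphorylated by S6 kinase, had 4675 ± 70.8 normalized counts in TG and 4680 ± 280 in WT, and *Larp1*, which binds the messages of ribosomal proteins, 4239 ± 11.6 and 4111 ± 165. *Rps6*, the ribosomal protein that S6 kinases phosphorylate, followed the replicate number and not the genotype. It had 2939, 3456 and 5175 normalized counts in TG-1 to TG-3 against 3542, 3397 and 5274 in WT-1 to WT-3, so that both libraries numbered 3 were above the other 4. GENCODE lists 4 genes named as *Rps6* pseudogenes, whose reads may not be separable from those of *Rps6*.

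*Grb10* (ENSMUSG00000020176, chromosome 11 from 11930508 to 12038683), an imprinted gene for an adaptor that mTORC1 stabilizes and that damps insulin signaling, stood first of the 106 genes of the pathway by limma's p-value. It had 1489, 1413 and 1346 normalized counts in TG-1 to TG-3 against 1014, 1148 and 1244 in WT-1 to WT-3. The lowest TG library was above the highest WT library. This was a log2 fold change of 0.32 (SE 0.096, 95% interval 0.10 to 0.55), and limma's p-value was 0.0105 before adjustment. Adjusted over all tested genes, limma's p-value was 1.00, and it was 0.579 with the replicate block and 0.0947 with the empirical null. The leptomeningeal markers also had higher sums in TG (2228, 2328 and 1974 normalized counts in TG-1 to TG-3, and 1969, 1715 and 1529 in WT-1 to WT-3). Among the WT libraries these sums had the reverse order of *Grb10*. Among the TG libraries TG-3 was lowest in both, but the highest was TG-2 for the sums and TG-1 for *Grb10*. The part of these markers in the difference of *Grb10* was not tested.

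The remaining lists held genes whose RNA is known to respond to mTORC1 through transcription factors. The list of *Atf4* and its targets in serine and amino acid synthesis had 6 of 12 genes above 0 and a median log2 fold change of 0.016. *Atf4* had 3566 ± 372 normalized counts in TG and 3786 ± 329 in WT, *Psat1* 2438 ± 193 and 2560 ± 132, and *Asns* 2330 ± 89.3 and 2259 ± 152. *Aldh18a1* (ENSMUSG00000025007), which encodes an enzyme of proline synthesis, had 686, 692 and 754 in TG and 625, 602 and 611 in WT. Its groups did not overlap, and with a log2 fold change of 0.21 (SE 0.082) limma's p-value was 0.0333 before adjustment and 1.00 after it. The lysosomal genes that TFEB activates when mTORC1 is off had 8 of 12 above 0, a median of 0.024 and a narrow range, from -0.056 to 0.080. The most abundant were *Ctsb* (14295 ± 835 in TG and 14228 ± 631 in WT), *Sqstm1* (10027 ± 191 and 9861 ± 764) and *Ctsd* (8018 ± 1123 and 8080 ± 1244), whose group means lay within the spread.

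**Figure D5:**
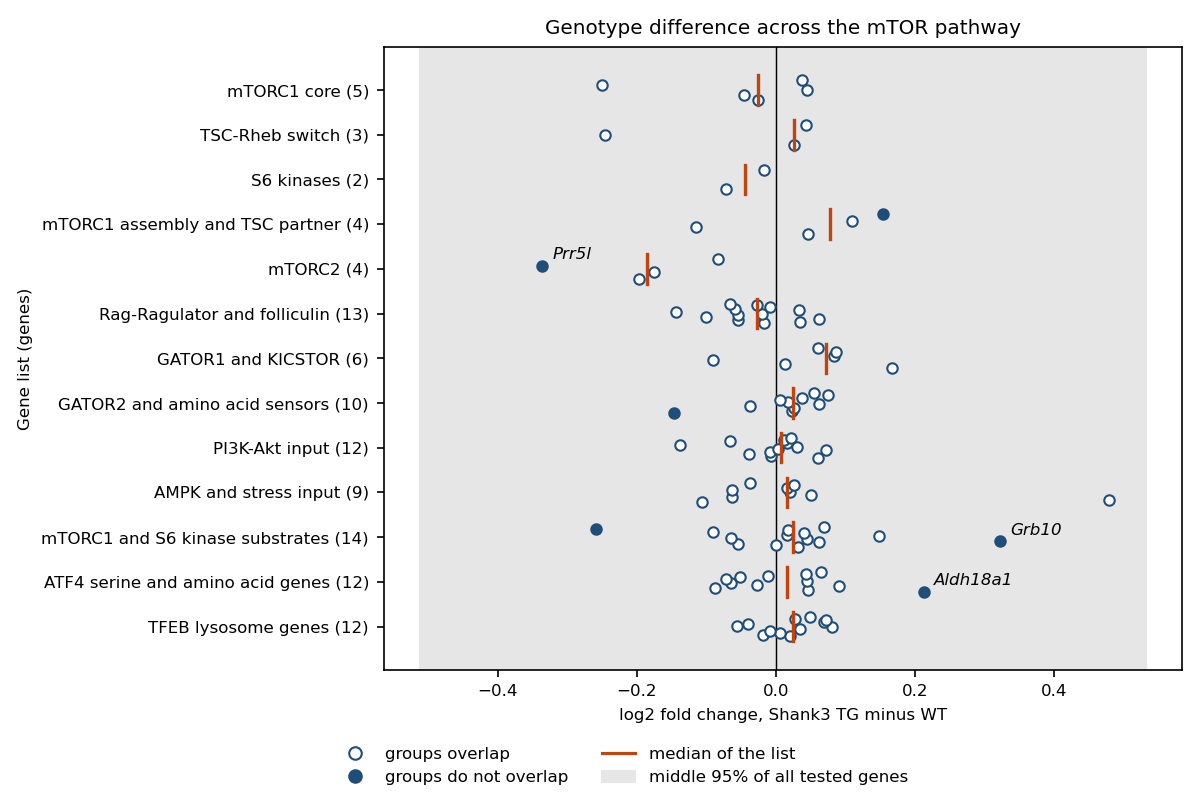
Log2 fold change (TG minus WT, x axis) of each gene of the 13 lists, the first 3 of which hold the 10 members, with filled points where the groups do not overlap, an orange line at the median of each list and a gray band over the middle 95% of all tested genes, from -0.51 to 0.53. All 106 points lie inside the band, and the named genes have an unadjusted p-value under 0.05.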

How the data were processed

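RNA sequencing of 6 mPFC libraries (TruSeq Stranded mRNA), 3 TG and 3 WT, was used. The authors estimated transcript abundance with Salmon 0.9.1 on GRCm38 with GC bias correction, imported it at the gene level with tximport in R 3.6.0 and scaled the counts with DESeq2 1.19.11 size factors. The deposited signal is the normalized count, 1 column per library, which is not a whole number, so no counting interval was computed. The sums of 28363967 to 29447717 normalized counts per library were taken after this scaling, so they do not measure the sequencing depth.

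Genes were named from GENCODE release M21 (GRCm38), which held 18231 of the 18254 identifiers, and all 161 list genes were matched. A filter at an average of 5 normalized counts kept 16714 genes, which were tested on log2(normalized count + 1) with limma 3.58.1 in R 4.3.3 (lmFit, eBayes with a trend, genotype alone), with two-sided p-values, adjusted by Benjamini-Hochberg and called at 0.05. The fit was tested on simulated data. The members and lists were chosen with earlier results of these data known. Genes named are the members, *Shank3*, the 3 most abundant of each pathway list, genes with an unadjusted p-value under 0.05 and the 3 most like *Mtor*, and single markers or overlapping genes a result touches. Some genes that this rule names are not reported here. Same-numbered libraries were compared, and replicate number was a block in a separate setting, because their deviations correlated (0.30, 0.33 and 0.62). The main fit did not pair them. Other settings were a pseudocount of 0.1 or 5, a filter at 50 or none, 2 other scalings, 2 other eBayes settings, the replicate block, an empirical null and each library left out. Leaving out both libraries numbered 3 and the longest transcript as length were chosen with the data in view. Protein, phosphorylation and the other experiments of the study were not analysed here.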

Additional observations from a re-analysis of the deposited data

How the results depend on the processing

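The number of members called was 0 in limma's test in each of the 17 other settings. The number of genes called over the whole table was 0, and it was 1 with robust eBayes, 1 with the replicate block, 1 without the libraries numbered 3, 26 with the empirical null, and 0 to 1 with each library left out. The log2 fold change of *Shank3* was 1.18 with robust eBayes, the replicate block and the empirical null and 1.14 without the libraries numbered 3, each now past the threshold, and 1.09 to 1.24 with each library left out, past it without WT-3 only. Its adjusted p-value in limma rose from 0.0643 to 0.588 with eBayes without a trend and to 0.703 without TG-1. With the libraries numbered 3 left out, *Akt1s1* (0.033), *Rheb* (-0.032) and *Rps6kb2* (0.0055) changed sign. With each library left out, *Mlst8* ranged from -0.044 to 0.14, *Akt1s1* from -0.12 to 0.094, *Deptor* from -0.17 to 0.037, *Rheb* from -0.081 to 0.11 and *Rps6kb2* from -0.089 to 0.039, and the median of the members from -0.037 to 0.025, above 0 without WT-1 only. The cause was not tested. *Mtor*, *Rptor*, *Tsc1*, *Tsc2* and *Rps6kb1* kept their sign in every setting. The smallest adjusted p-value of any member in limma's test was 0.469, for *Tsc1* with the empirical null. With 3 pools per genotype, the width of each interval sets the precision.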

Other observations

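The groups of 6 pathway genes did not overlap: *Tti1*, *Grb10*, *Aldh18a1* and *Prr5l*, described above, and *Castor1* and *Tfeb*, which are named here after their values had been seen. *Castor1*, the arginine sensor, had 52.3, 49.8 and 52.5 normalized counts in TG-1 to TG-3 and 60.7, 55.5 and 55.3 in WT-1 to WT-3, and its log2 fold change was -0.15 (SE 0.16). *Tfeb*, the transcription factor of lysosomal genes that mTORC1 keeps out of the nucleus, had 144, 164 and 163 in TG and 191, 164 and 210 in WT, and its log2 fold change was -0.26 (SE 0.14), with TG-2 and WT-2 nearly equal. *Ddit4l*, a stress-induced inhibitor of the pathway also named after its values had been seen, had the largest log2 fold change of the pathway lists, 0.48 (SE 0.22). It had 989, 569 and 652 normalized counts in TG and 586, 548 and 422 in WT, and the groups overlapped, since TG-2 lay below WT-1. Each TG library was above the WT library of the same number, by 0.75, 0.054 and 0.63 on the log2 scale. With the replicate block, limma gave *Ddit4l* a p-value of 0.00533 before adjustment and 0.579 after it. Without the block and before adjustment, limma gave *Castor1*, *Tfeb* and *Ddit4l* p-values of 0.403, 0.0984 and 0.0580.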
